A study of Mus musculus with 22 samples.

Results

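Interferon response and immunoproteasome genes were followed in liver tumours of mice that lack Mdr2 (gene symbol Abcb4), with and without a block of NF-kB in hepatocytes. The set held 9 genes, Psmb8, Psmb9, Tap1, Irf7, Irf9, Usp18, Isg15, Ifit1 and Ifit3, and was found by matching the gene symbol of each array spot, or its current alias. Of these, 7 genes were measured, by 9 spots, among 16896 genes named on the array. Isg15 and Ifit3 were not analysed here, because no spot carried either name in the annotation used. Psmb9 and Irf9 had 2 spots each, Irf9 under its old symbol Isgf3g, and the other 5 genes had 1 each.

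The IkB-SR group was 6 hepatocellular carcinomas (replicates 3, 4, 6, 8, 9 and 10) of mice without Mdr2 that also carried a pair of transgenes, one for the IkB super-repressor behind a tetracycline-regulated promoter and one (TALAP1) for the transactivator that acts on it, behind a C/EBP promoter active in hepatocytes. The Mdr2-KO group was 4 carcinomas (replicates 1, 2, 5 and 7) of mice without Mdr2 and without the transgenes. The wild-type group was 1 liver from the same mixed background. The super-repressor is a form of IkB-alpha that holds NF-kB in the cytoplasm and was driven here by a hepatocyte promoter, not one of immune or endothelial cells. The sources used here do not give the ages of the mice, the labels give their sex as unknown, and the wild-type liver carries a carcinoma stage in its label. The design text speaks of individual mice, and all tests treated the tumours as independent.

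Interferons bind cell-surface receptors and, through Janus kinases, pass a signal to the nucleus. Type I interferon leads to a complex with Irf9 that binds the interferon-stimulated response element (ISRE), while the interferon-gamma signal acts at the gamma-activated site (GAS). Among the genes turned on are antiviral effectors, feedback inhibitors and the parts of the immunoproteasome, a form of the proteasome that cuts proteins into peptides for MHC class I molecules. NF-kB also takes part in the induction of several of these genes, and in liver they are expressed by hepatocytes as well as by Kupffer, endothelial and infiltrating immune cells.

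The promoters of 3 of the measured genes are shown because they differ in which of the binding motifs they hold. Each line gives the 250 bases before the start of the gene in RefSeq on GRCm38.p6, read 5′ to 3′ on the gene's own strand. Capitals mark a match to the ISRE core (TTTC NN TTTC, where N is any base) or to the GAS motif (TTCNNNGAA), searched on both strands. Ifit1 lies at chr19:34640889-34650009 and its stretch at chr19:34640639-34640888, plus strand. Psmb8 lies at chr17:34198195-34201454 and its stretch at chr17:34197945-34198194, plus strand. Tap1 lies at chr17:34187556-34197225 and its stretch at chr17:34187306-34187555, plus strand. Of the other measured genes, Psmb9 lies at chr17:34182030-34187330, Irf7 at chr7:141263183-141266499, Irf9 at chr14:55603985-55610030 and Usp18 at chr6:121245906-121270917.
Ifit1: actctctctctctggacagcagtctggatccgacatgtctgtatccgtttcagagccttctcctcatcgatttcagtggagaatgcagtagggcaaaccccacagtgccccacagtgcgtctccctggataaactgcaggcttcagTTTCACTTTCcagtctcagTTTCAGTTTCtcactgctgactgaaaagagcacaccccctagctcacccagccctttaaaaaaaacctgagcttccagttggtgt
Psmb8: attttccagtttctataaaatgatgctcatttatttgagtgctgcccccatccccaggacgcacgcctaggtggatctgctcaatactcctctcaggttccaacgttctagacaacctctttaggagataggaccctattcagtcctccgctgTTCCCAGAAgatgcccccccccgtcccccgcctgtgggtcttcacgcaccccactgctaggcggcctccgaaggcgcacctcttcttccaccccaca
Tap1: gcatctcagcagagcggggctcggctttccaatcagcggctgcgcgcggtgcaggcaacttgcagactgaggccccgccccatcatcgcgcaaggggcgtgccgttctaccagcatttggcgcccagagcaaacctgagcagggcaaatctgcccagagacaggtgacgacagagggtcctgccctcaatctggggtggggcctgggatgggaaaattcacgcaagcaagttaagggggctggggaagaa

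Ifit1 held 2 ISRE cores, at 104 to 95 and 85 to 76 bases before its start. Psmb8 held 1 GAS match, at 97 to 89 bases before its start, and no ISRE core. The stretch before Tap1 held neither, and it overlaps the start of Psmb9 on the opposite strand: the windows of 300 bases around the 2 starts shared 275 bases. Windows were found for 8 of the 9 genes (250 bases before and 50 after the start, with a pair of windows for Irf9), and for these Irf7, Irf9 and Psmb9 held no match to either motif. Isg15, with 3 overlapping ISRE cores read on the opposite strand, and Ifit3, with 2, were the other genes with a match. Over 32851 such windows of all genes, the ISRE core occurred in 3.443%, the GAS motif in 8.298% and the NF-kB consensus in 8.459%. The NF-kB consensus was found in 0 of the 8 genes' windows. A match describes these letters only, and no match says only that the letters are not in this window.

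All values are log ratios of the sample over a universal mouse reference RNA, with base 2 assumed because the labels do not state the base, and averaged over a pair of arrays with the dyes exchanged, so a value can be compared between samples and not between genes. The arrays had values for 19576 to 25000 spots each. The difference between the arrays of a pair had an SD over spots of 0.215 to 0.305 in 6 samples (IkB-SR 3, 4, 9 and 10, Mdr2-KO 1 and 2) and of 0.662 to 0.758 in 5 samples (IkB-SR 6 and 8, Mdr2-KO 5 and 7, and the wild-type liver). These are called samples of small and large dye difference. In the samples of large dye difference the Cy3 array read higher than the Cy5 array by 0.99 to 1.41 for both Irf9 spots. The gap was 0.72 to 1.24 for Ifit1, 0.71 to 0.98 for Tap1, 0.56 to 0.81 for Usp18 and 0.52 to 0.80 for Psmb8. For the Psmb9 spots it was 0.37 to 0.82 and 0.13 to 0.42, and for Irf7 -0.53 to -0.11. The values used average both dyes, and whether this removes the gap was not tested. As a check of the labels, Nfkbia, the parent gene of the transgene, lay between 1.69 and 3.11 in 5 IkB-SR tumours but at 0.00 in IkB-SR tumour 8, against 0.04 to 0.30 in Mdr2-KO tumours. Eif2s3y, a Y-linked gene, lay at 1.63 to 2.46 in the wild-type liver and in IkB-SR tumours 6, 8 and 9, and at or below -2.98 in the other tumours. The 9 hepatocyte markers with values in every sample, of 10 listed, averaged 5.46 to 6.43 in IkB-SR tumours, 5.33 to 5.75 in Mdr2-KO tumours and 5.74 in the wild-type liver. In bulk tissue, fewer cells of a type and less RNA per cell cannot be told apart.

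**Figure D1:**
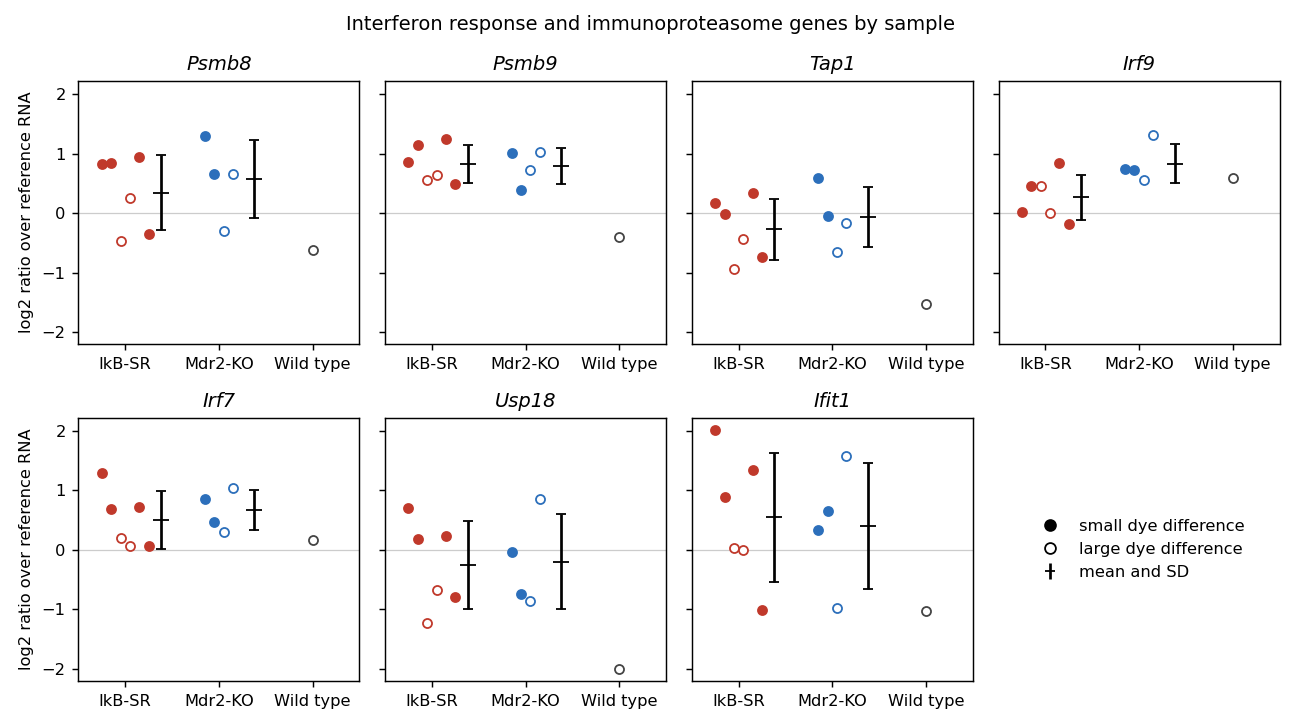
Log2 ratio over reference RNA (vertical axis) of the 7 measured genes in each IkB-SR tumour (red), Mdr2-KO tumour (blue) and the wild-type liver (grey), with bars for the mean and SD of the tumour groups and open circles for samples of large dye difference. The tumour groups overlap in every panel, and the wild-type liver lies below all 10 tumours for Psmb8, Psmb9, Tap1, Usp18 and Ifit1 but not for Irf7 or Irf9.

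The first question was whether the super-repressor altered the immunoproteasome and peptide transport genes. They did not pass the test. Psmb8, the chymotrypsin-like catalytic subunit of the immunoproteasome (LMP7), was at 0.82, 0.84, -0.46, 0.26, 0.95 and -0.36 in IkB-SR tumours 3, 4, 6, 8, 9 and 10, against 1.29, 0.66, -0.30 and 0.65 in Mdr2-KO tumours 1, 2, 5 and 7. Low and high tumours occurred in both groups: IkB-SR 6 and 10 and Mdr2-KO 5 were the only tumours below 0. Psmb8 averaged 0.34 ± 0.63 (SD, n = 6) in IkB-SR tumours and 0.57 ± 0.65 (SD, n = 4) in Mdr2-KO tumours, a difference of -0.23 (limma adjusted p = 0.921, 95% interval -1.07 to 0.60).

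Psmb9, the catalytic subunit (LMP2) that takes the place of Psmb6, was at 0.87, 1.15, 0.56, 0.64, 1.24 and 0.49 in IkB-SR tumours 3, 4, 6, 8, 9 and 10. The Mdr2-KO tumours 1, 2, 5 and 7 were at 1.02, 0.39, 0.73 and 1.03. The ranges lay almost on top of each other. The difference was 0.03 (limma adjusted p = 0.983), and its 95% interval of -0.38 to 0.45 was the narrowest of the 7 genes. The 2 Psmb9 spots differed in direction, at 0.28 on one and -0.17 on the other, the second lacking a value for Mdr2-KO tumour 7.

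Tap1, a subunit of the transporter that carries peptides into the endoplasmic reticulum, was at 0.17, -0.01, -0.94, -0.43, 0.33 and -0.73 in IkB-SR tumours 3, 4, 6, 8, 9 and 10, against 0.60, -0.05, -0.64 and -0.17 in Mdr2-KO tumours 1, 2, 5 and 7. The order of the tumours was close to that for Psmb8. The difference was -0.20 (limma adjusted p = 0.912, 95% interval -0.87 to 0.47).

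Among the regulators, Irf9 stood lowest relative to Mdr2-KO tumours. Irf9, the DNA-binding subunit of the type I interferon complex, was at 0.02, 0.45, 0.45, 0.00, 0.84 and -0.18 in IkB-SR tumours 3, 4, 6, 8, 9 and 10, against 0.74, 0.72, 0.56 and 1.32 in Mdr2-KO tumours 1, 2, 5 and 7. In 5 of 6 IkB-SR tumours the value was below that of every Mdr2-KO tumour, and IkB-SR tumour 9 was the exception. The mean was 0.26 ± 0.38 (SD, n = 6) in IkB-SR tumours and 0.83 ± 0.33 (SD, n = 4) in Mdr2-KO tumours. The difference of -0.57 did not pass the threshold across all features (limma unadjusted p = 0.0261, adjusted p = 0.327), and the exact permutation test over the 210 splits of the tumours gave p = 0.0571, two-sided, where the smallest possible is 0.00476. Both spots gave it, at -0.61 and -0.53, as did the samples of small dye difference (-0.45) and of large dye difference (-0.71). Without IkB-SR tumour 9 the exact permutation p was 0.0159 and without Mdr2-KO tumour 5 it was 0.0476, while without Mdr2-KO tumour 7 it was 0.155. Leaving out any other single tumour gave 0.0595 to 0.111. It was 0.111 without IkB-SR tumour 8, the one with low Nfkbia.

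Irf7, the transcription factor that amplifies type I interferon production, was at 1.30, 0.69, 0.20, 0.06, 0.71 and 0.06 in IkB-SR tumours 3, 4, 6, 8, 9 and 10, against 0.85, 0.47, 0.30 and 1.04 in Mdr2-KO tumours 1, 2, 5 and 7. IkB-SR tumours supplied both the highest value and the 3 lowest. The difference was -0.17 (limma adjusted p = 0.918, 95% interval -0.74 to 0.41).

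Usp18, the protease that removes Isg15 from proteins and damps signalling at the type I interferon receptor, was at 0.71, 0.18, -1.22, -0.67, 0.24 and -0.79 in IkB-SR tumours 3, 4, 6, 8, 9 and 10. In Mdr2-KO tumours 1, 2, 5 and 7 it was at -0.03, -0.75, -0.86 and 0.85. The groups overlapped over nearly their whole range, with a difference of -0.06 (limma adjusted p = 0.987, 95% interval -1.06 to 0.93). The difference was 0.47 in the samples of small dye difference and -0.95 in those of large dye difference. That contrast between the sets did not pass either (interaction term in limma, adjusted p = 0.760).

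Ifit1, an antiviral protein that binds foreign RNA ends, was at 2.02, 0.89, 0.04, -0.00, 1.34 and -1.01 in IkB-SR tumours 3, 4, 6, 8, 9 and 10, against 0.34, 0.65, -0.98 and 1.58 in Mdr2-KO tumours 1, 2, 5 and 7. It varied most of the 7 genes, and the spread within each group was far wider than the gap between them. The mean was 0.55 ± 1.09 (SD, n = 6) in IkB-SR tumours and 0.40 ± 1.06 (SD, n = 4) in Mdr2-KO tumours, a difference of 0.15 (limma adjusted p = 0.978, 95% interval -1.25 to 1.55).

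For IkB-SR against Mdr2-KO tumours, 0 of the 7 genes passed an adjusted p of 0.05 in limma, where 0.0% of the 18188 features tested on the array passed. At an unadjusted p under 0.05 Irf9 was the 1 gene of the 7, and over all features 550 were higher (3.02%) and 1706 lower (9.38%). By exact permutation 0 of the 7 had a p under 0.05. In sign, 2 genes were higher and 5 lower, with a median difference of -0.17 beside -0.02 over all features. That median took the other sign, at 0.03, within the samples of small dye difference and with Eif2s3y as a covariate, at 0.05 with array weights and at 0.01 without Mdr2-KO tumour 1. Markers of other cell types had unlike values in the same groups. All 11 tested Kupffer and macrophage markers of 12 listed were lower in IkB-SR tumours (median -0.80), as were all 7 tested endothelial markers of 8 listed (median -1.38). None of these genes passed the adjusted threshold in limma, while 9 and 6 of them had an unadjusted p under 0.05. The 10 Kupffer and macrophage markers with values in every sample averaged 1.84 to 2.33 in IkB-SR tumours and 2.48 to 3.35 in Mdr2-KO tumours. The 5 such endothelial markers averaged 0.31 to 1.40 in IkB-SR tumours and 1.47 to 3.07 in Mdr2-KO tumours. Their part in the values above was not tested.

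**Figure D2:**
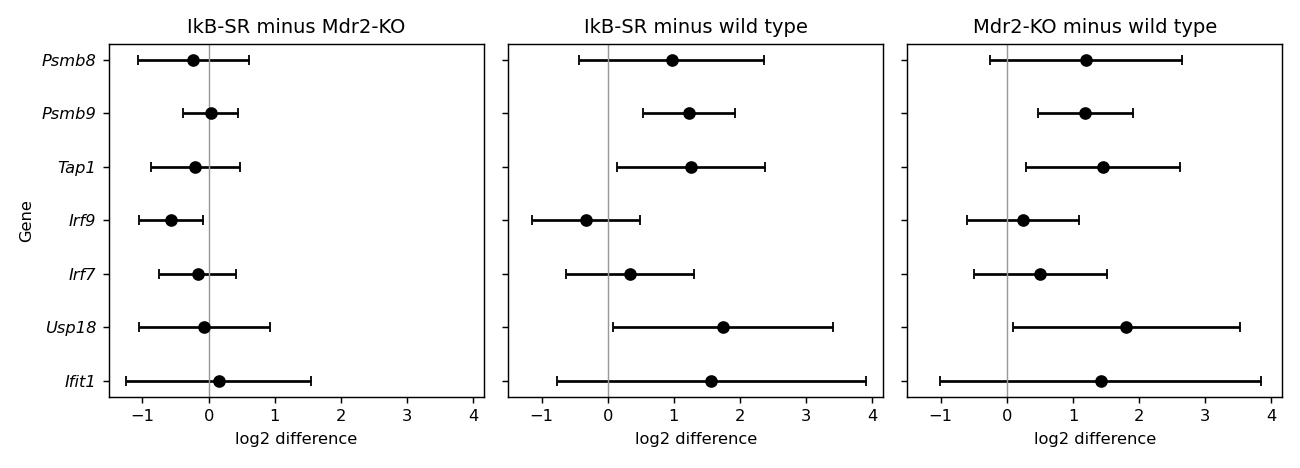
Log2 differences between groups (horizontal axis) for the 7 measured genes, with points for the limma estimate and bars for its 95% interval, for IkB-SR minus Mdr2-KO, IkB-SR minus wild type and Mdr2-KO minus wild type. The tumour groups differ by -0.57 to 0.15, and the estimates over the wild-type liver reach 1.74 and 1.80 for Usp18 with wide intervals that rest on 1 liver.

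Against the wild-type liver, 5 of the 7 genes had higher values in all 10 tumours, as did 14.2% of the 14705 features measured in every sample. In limma 0 of 7 passed the adjusted threshold in either comparison, and at an unadjusted p under 0.05 Psmb9, Tap1 and Usp18 were the 3 in both, each higher in the tumours. The shares of all features that were higher at that unadjusted p were 6.05% for IkB-SR tumours and 8.49% for Mdr2-KO tumours, with 3.16% and 1.96% lower. The shares that passed the adjusted threshold were 0.167% of 17414 for IkB-SR tumours over wild-type liver and 0.247% for Mdr2-KO tumours over wild-type liver. The wild-type values were -0.62 for Psmb8, -0.40 for Psmb9, -1.52 for Tap1, -2.00 for Usp18 and -1.02 for Ifit1, each below all 10 tumours. For Ifit1, IkB-SR tumour 10 at -1.01 and Mdr2-KO tumour 5 at -0.98 were close to the liver. The mean of the 10 tumours was at least 2-fold above the liver for the same 5 genes, from 2.08-fold for Psmb8 to 3.40-fold for Usp18, while 3.54% of features were.

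Psmb9 had the smallest p of the 7 genes in both comparisons. It was higher than in the wild-type liver by 1.22 ± 0.31 (SE) in IkB-SR tumours (limma adjusted p = 0.214) and by 1.19 ± 0.32 (SE) in Mdr2-KO tumours (limma adjusted p = 0.198). One Psmb9 spot gave 1.81 and 1.53 for these differences and the other 0.63 and 0.80. Tap1 was higher by 1.25 in IkB-SR tumours (limma adjusted p = 0.468) and 1.46 in Mdr2-KO tumours (limma adjusted p = 0.327). Usp18 was higher by 1.74 in IkB-SR tumours (limma adjusted p = 0.517) and 1.80 in Mdr2-KO tumours (limma adjusted p = 0.444).

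Psmb8 was higher by 0.97 in IkB-SR tumours and 1.20 in Mdr2-KO tumours, and Ifit1 by 1.57 and 1.42. The transcription factors differed less. Irf7 lay above the liver, at 0.16, in 8 of 10 tumours, with differences of 0.34 for IkB-SR tumours and 0.51 for Mdr2-KO tumours. Irf9 lay above the liver, at 0.59, in 4 of 10 tumours, with differences of -0.33 for IkB-SR tumours and 0.24 for Mdr2-KO tumours.

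The wild-type liver was itself a sample of large dye difference. Set against the 4 tumours of that kind alone, Psmb8 was higher by 0.66, Psmb9 by 1.14, Tap1 by 0.98, Usp18 by 1.52 and Ifit1 by 1.18, in 4 of 4 tumours for each. In the same tumours Irf7 differed by 0.24 and Irf9 by -0.01. Eif2s3y was at 2.33 in the liver, near its values in IkB-SR tumours 6, 8 and 9 and above those in the other 7 tumours. All 10 tumours exceeded the liver in the mean of the 10 Kupffer and macrophage markers with values in every sample (1.71 in the liver). With Eif2s3y as a covariate, the Mdr2-KO difference from the liver was 1.15 for Usp18 and 0.10 for Irf7. Without it these were 1.80 and 0.51. For Irf9 the covariate moved the difference the other way, from 0.24 to 0.71. Eif2s3y was low in every Mdr2-KO tumour (-4.01 to -3.67), so its level and the Mdr2-KO contrast with the liver cannot be told apart. The part of the Kupffer and macrophage markers was not tested.

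**Figure D3:**
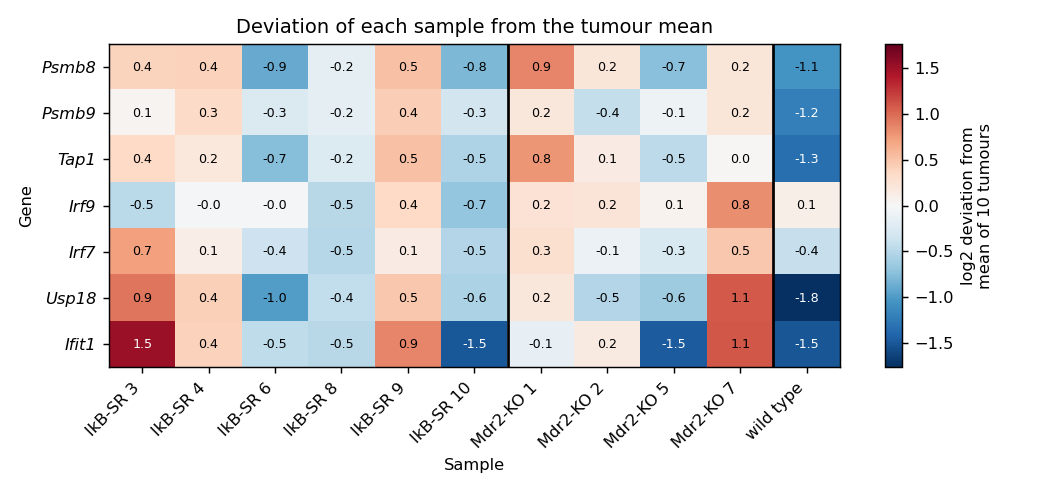
Deviation of each sample (columns) from the mean of the 10 tumours, on the log2 scale, for the 7 measured genes (rows), with red above and blue below the tumour mean. IkB-SR 9 and Mdr2-KO 7 are above the mean in every row, IkB-SR 6, 8 and 10 are below it in every row, and the wild-type column is lowest for Psmb8, Psmb9, Tap1, Usp18 and Ifit1.

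These genes varied between tumours of the same group. The SD over the 10 tumours was 1.02 for Ifit1, 0.72 for Usp18 and 0.61 for Psmb8, against a median of 0.24 over all features. Ifit1 exceeded 99.0% of features in SD, Usp18 96.2% and Psmb8 93.9%, while Psmb9, with an SD of 0.29, exceeded 62.0%. From the lowest tumour to the highest, Ifit1 spanned 8.14-fold, Usp18 4.21-fold, Psmb8 3.37-fold and Psmb9 1.80-fold.

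The genes varied together across tumours. With each gene centred on its tumour mean, the mean of the 7 genes was 0.50 in IkB-SR tumour 3, 0.26 in 4, -0.53 in 6, -0.36 in 8, 0.47 in 9 and -0.70 in 10. It was 0.35 in Mdr2-KO tumour 1, -0.04 in 2, -0.51 in 5 and 0.56 in 7, and -1.03 in the wild-type liver. Each tumour group thus held tumours at both ends. All 7 genes were above their tumour mean in IkB-SR tumour 9 and Mdr2-KO tumour 7, and 0 of 7 were in IkB-SR tumours 6, 8 and 10. The 4 tumours of large dye difference included 3 with low means (IkB-SR 6 and 8, Mdr2-KO 5) and the highest of all (Mdr2-KO 7).

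All 21 pairs of the 7 genes correlated positively over the 10 tumours, with a median Pearson's r of 0.67 (range 0.37 to 0.98). By a permutation test with 100000 resamples, adjusted by Benjamini-Hochberg over the 21 pairs, 9 passed 0.05 on r and 4 on both r and Spearman's rho. Psmb8 and Tap1, which neighbour each other on chromosome 17, were closest (r = 0.977, rho = 0.988, permutation p = 1e-05 for each, the smallest it can give, adjusted p = 0.00021). Their r was 0.957 without the 2 tumours farthest from the median of Psmb8, and 0.977 within the 6 tumours of small dye difference. Psmb9, which also lies next to Tap1, had r = 0.657 with Tap1 and 0.668 with Psmb8. Neither pair passed (permutation test, adjusted p = 0.0705 for each). A link between position and r was not tested.

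The other 3 pairs that passed on both r and rho joined Irf7, Usp18 and Ifit1. Irf7 and Usp18 had r = 0.904 and rho = 0.818 (permutation p = 0.00065 and 0.00579, adjusted 0.00682 and 0.0304), with r = 0.894 without the 2 farthest tumours. Irf7 and Ifit1 had r = 0.857 and rho = 0.891 (permutation p = 0.00191 and 0.00108, adjusted 0.0134 and 0.0113), with r = 0.733 without the 2 farthest. Usp18 and Ifit1 had r = 0.836 and rho = 0.855 (permutation p = 0.00318 and 0.00306, adjusted 0.0167 and 0.0214), with r = 0.691 without the 2 farthest. Within the 6 tumours of small dye difference r was 0.898, 0.877 and 0.833 for these 3 pairs, and 0 of the 21 pairs passed there after adjustment. The 4 tumours of large dye difference were too few for a value. On deviations from group means 9 pairs passed 0.05 on r and 2 on both r and rho, Psmb8 with Tap1 and Irf7 with Ifit1. On deviations from dye-set means 4 passed on r and 2 on both, Psmb8 with Tap1 and Irf7 with Usp18.

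Irf9 had the lowest r with the others over the 10 tumours. Its r with the other 6 genes was 0.37 to 0.46, and 0 of those 6 pairs passed. On deviations from group means its r ran from 0.31 with Tap1 to 0.66 with Psmb9, and again 0 of 6 passed. Irf9 and Ifit1 had r = 0.394 and rho = 0.503 (permutation p = 0.259 and 0.144, adjusted 0.286 and 0.151), and r was -0.13 without the 2 tumours farthest from the median of Irf9. Leaving out the 2 tumours farthest in the other gene, r was 0.85 for Irf7 and Irf9 and 0.61 for Psmb9 and Irf9. By the same rule it was 0.38 for Tap1 and Irf9 and 0.21 for Psmb8 and Irf9. IkB-SR tumour 3 combined the highest Ifit1 value with an Irf9 value near 0.

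**Figure D4:**
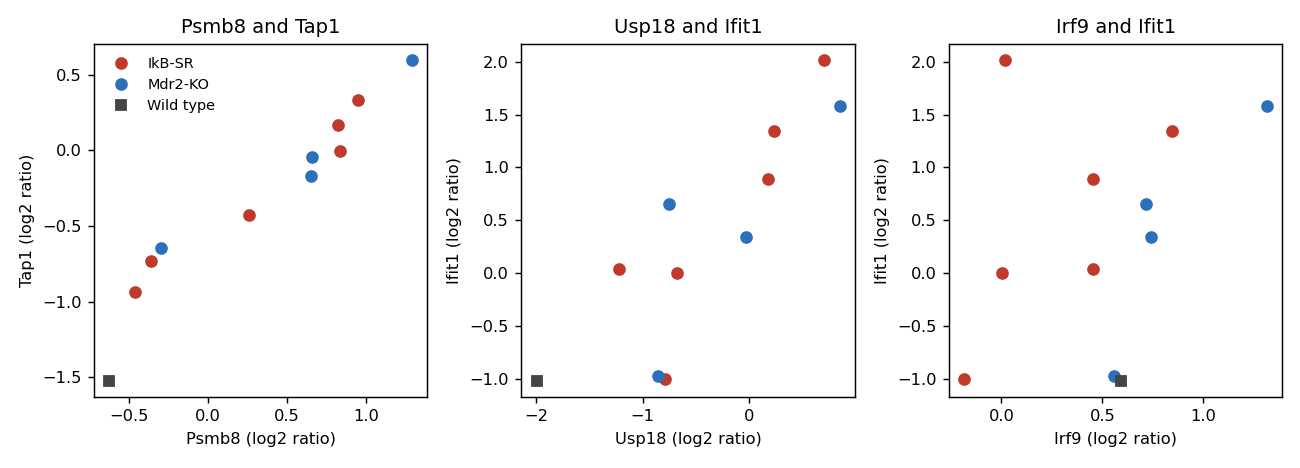
Log2 ratios over reference RNA of Psmb8 against Tap1, Usp18 against Ifit1 and Irf9 against Ifit1, with 1 point per IkB-SR tumour (red), Mdr2-KO tumour (blue) and the wild-type liver (grey square). The tumours of both groups lie along 1 line for Psmb8 and Tap1 (r = 0.977), and scatter for Irf9 and Ifit1 (r = 0.394).

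The named genes most like the mean of the 7 over the 10 tumours, among 10229 with values throughout, were Sez6l2 (r = 0.94), Rtp4 (0.93), Herc6 (0.92), Ifi44 (0.92), Ptpn22 (0.92) and Hk3 (0.92). Over 14994 features the median r was -0.03 and 1% of features exceeded 0.73. Rtp4, Herc6 and Ifi44 were also on the list of type I interferon targets. The least alike were Dag1 (-0.87), St3gal3 (-0.85) and Cyp7a1 (-0.84), the rate-limiting enzyme of bile acid synthesis, which spanned 0.82 to 4.34 across tumours. These values describe likeness over the same tumours and carry no test. The mean of the 4 T and NK cell markers measured in every sample, of 14 listed, was -0.20, -0.24, -1.06, -0.90, -0.45 and -0.73 in IkB-SR tumours 3, 4, 6, 8, 9 and 10, and -0.77, -0.12, -0.86 and -0.00 in Mdr2-KO tumours 1, 2, 5 and 7, with -0.46 in the wild-type liver. It was low in the tumours where the 7 genes were low (IkB-SR 6, 8 and 10, Mdr2-KO 5) and also in Mdr2-KO tumour 1, where they were high. The part of this mean in the shared variation was not tested. Of the 7 tested T and NK cell markers, 3 were higher and 4 lower in IkB-SR than in Mdr2-KO tumours.

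The wider pathway was described with lists of other genes. Of 14 listed ligands 3 were tested, the type I interferon Ifna1 and the interleukins Il12b and Il18, and Ifng and Ifnb1 were not among them. Of 5 tested receptor genes, 1 was higher and 4 lower in IkB-SR than in Mdr2-KO tumours (median -0.09), and 4 of 5 were above the wild-type liver in both tumour groups. Ifngr1, the ligand-binding chain of the interferon-gamma receptor, was at -0.77, -0.28, -0.92, -0.48, -0.77 and -0.46 in IkB-SR tumours 3, 4, 6, 8, 9 and 10, against -0.35, -0.32 and 0.17 in Mdr2-KO tumours 1, 5 and 7, with no value in Mdr2-KO tumour 2, and -1.50 in the wild-type liver. It was above the liver in all 9 tumours with a value, by 0.89 in IkB-SR tumours (limma adjusted p = 0.304) and 1.33 in Mdr2-KO tumours (limma adjusted p = 0.116).

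Of 16 signalling genes 2 were higher and 14 lower in IkB-SR than in Mdr2-KO tumours (median -0.19), and of 11 sensors 2 were higher and 9 lower (median -0.13). Irf8, a transcription factor of myeloid cells, was 0.04 to 1.04 (median 0.47) in IkB-SR tumours and 0.83, 1.14, 1.39 and 1.48 in Mdr2-KO tumours, a difference of -0.67 (limma adjusted p = 0.234, exact permutation p = 0.0286). Irf1, which drives many interferon-gamma targets, differed by -0.32 (limma adjusted p = 0.417). Stat2 and Irf3 differed by -0.03 and -0.06.

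Of 41 tested type I interferon targets, 10 were higher and 31 lower in IkB-SR than in Mdr2-KO tumours, with a median of -0.18. Over the wild-type liver, 30 of 40 were higher in IkB-SR tumours (median 0.17) and 32 of 40 in Mdr2-KO tumours (median 0.39). Oasl2 differed most of the type I targets singled out, by -0.74 (limma adjusted p = 0.405). Over all 41 tested, the lowest difference was that of Ifitm1, at -0.76 (limma adjusted p = 0.0946). Ifit2, the neighbour and relative of Ifit1, differed by -0.05. Mx1, an antiviral GTPase, and Rsad2 stayed within 0.16 to 0.45 in all 11 samples, and Bst2 within 0.32 to 0.78. The SD over the 10 tumours was 0.09 for Mx1 and Rsad2 and 0.14 for Bst2, against a median of 0.24 over all features. Spot intensities were not analysed, so whether these spots held signal is not known.

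Of 13 interferon-gamma targets 2 were higher and 11 lower in IkB-SR than in Mdr2-KO tumours (median -0.17). Over the wild-type liver, 10 of 11 were higher in IkB-SR tumours (median 0.73) and 9 of 11 in Mdr2-KO tumours (median 0.85), beside all-feature medians of -0.02 and 0.02. Irgm1, an immunity-related GTPase, was above the liver in 10 of 10 tumours, by 0.62 in both groups. Cxcl9, the chemokine that draws T cells, was 1.80, 1.84, 1.69, 2.55, 1.54 and 1.60 in IkB-SR tumours 3, 4, 6, 8, 9 and 10, against 3.75, 3.72, 3.59 and 2.86 in Mdr2-KO tumours 1, 2, 5 and 7. The groups did not overlap, and the wild-type liver had no value. Over all features, 9.38% were lower at an unadjusted limma p under 0.05, and the share without overlap was not counted. The difference of -1.64 ± 0.23 (SE) missed the threshold (limma adjusted p = 0.058), while the unadjusted exact permutation p of 0.00476 was the smallest the design allows. It passed in limma under 6 alternatives, with array weights and without IkB-SR tumour 8 among them.

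In class I antigen processing, 1 of 12 tested genes was higher and 11 lower in IkB-SR than in Mdr2-KO tumours (median -0.23). Tapbp, which links the peptide transporter to class I molecules, was at -0.90, -1.47, -0.64, -0.33, -0.68 and -1.10 in IkB-SR tumours 3, 4, 6, 8, 9 and 10, against -0.14, -0.11, -0.17 and -0.02 in Mdr2-KO tumours 1, 2, 5 and 7, with no overlap. Its difference was -0.74 (limma adjusted p = 0.160, unadjusted exact permutation p = 0.0143), and the share of all features without overlap was not counted. B2m, the light chain of class I molecules, differed by -0.23 (limma adjusted p = 0.524), Psme1, a subunit of the proteasome activator PA28, by -0.44 (limma adjusted p = 0.446) and Tap2, the partner of Tap1, by -0.01. Tap2 lay between -0.02 and 0.36 in all samples, without the range seen for Tap1. The SD of Tap2 over the tumours was 0.10, against a median of 0.24 over all features. Without spot intensities, whether Tap2 gave signal is not known.

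The constitutive proteasome lay near 0 in each comparison. Of its 12 tested genes 3 were higher and 9 lower in IkB-SR than in Mdr2-KO tumours (median -0.06), and over the wild-type liver the medians were -0.03 in IkB-SR tumours and -0.01 in Mdr2-KO tumours. Psmb5 and Psmb6, whose places Psmb8 and Psmb9 take in the immunoproteasome, differed from the liver by -0.17 and -0.11 in IkB-SR tumours and by 0.03 and -0.07 in Mdr2-KO tumours. No gene of these lists passed the adjusted threshold in limma in any of the 3 comparisons. At an unadjusted p under 0.05 in IkB-SR against Mdr2-KO tumours, 1 of 41 type I targets was higher and 5 lower. Lower too were 2 of 13 interferon-gamma targets, 2 of 12 class I processing genes, 2 of 11 sensors, 1 of 16 signalling genes and 1 of 5 receptor genes. In the constitutive proteasome 0 of 12 had such a p. Over all 18188 features tested, 3.02% were higher and 9.38% lower at that p.

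**Figure D5:**
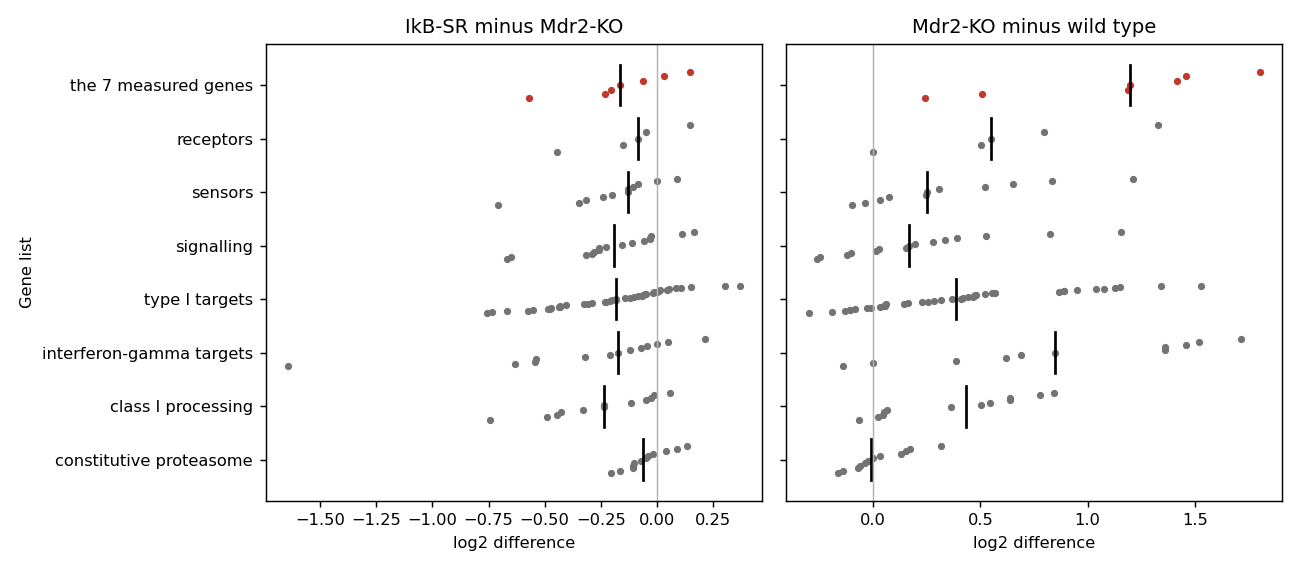
Log2 differences (horizontal axis) of single genes (points) in the 7 measured genes and 7 pathway lists (rows), with a vertical bar at each median, for IkB-SR minus Mdr2-KO and Mdr2-KO minus wild type. The medians lie at -0.23 to -0.06 on the first axis, and on the second the 7 genes (1.20) and the interferon-gamma targets (0.85) lie highest and the constitutive proteasome (-0.01) lowest.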

How the data were processed

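RNA of 11 samples was measured on 22 two-colour spotted arrays, with the dyes exchanged between the arrays of a pair, against universal mouse reference RNA. The authors' deposited table gives 1 normalized ratio, taken as log2, per spot and array for 37632 spots. Base 2 and the direction sample over reference are not stated in the labels. The direction was taken as likely, since hepatocyte genes were strongly positive. Base 2 is an assumption, on which every printed fold rests. The sources used here do not give the background correction, normalization or filters. Spot intensities were not analysed here, so spots with little signal could not be told from the others. The number of samples limits the precision.

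Of the spots, 20879 had 1 gene symbol and 16753 none. Symbols were brought up to date through RefSeq on GRCm38.p6 (15688 current, 5005 updated, 186 kept). Both arrays of a sample were averaged, and spots of a gene were centred on the gene's level and averaged. A feature was tested if at least 4 IkB-SR tumours and 3 Mdr2-KO tumours had a value (18188 features, 17414 of them against the wild-type liver). Limma 3.58.1 (R 4.3.3) fitted 3 group means with 8 residual degrees of freedom, taking the spread of the 1 wild-type liver to be that of the tumours, and p-values were adjusted over all features by Benjamini-Hochberg with a threshold of 0.05. Exact permutation ran over 210 splits, two-sided, and correlations over 100000 resamples (Python 3.11.15, scipy 1.17.1, numpy 2.4.6, pandas 2.3.3, matplotlib 3.10.9).

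The members, the lists and the other named genes (fixed symbols of each list, genes past the threshold and the 6 most and 3 least alike) were chosen with earlier results of these data known. Isg15, Ifit3, Psme2 and Cxcl10 had no spot named for them, and Psmb10 and Nlrc5 had too few values. The limit of 0.5 on the SD of the dye difference was set after the values were seen. Alternatives covered normalization, dye, filters, probes, weights, covariates and single samples.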

Additional observations from a re-analysis of the deposited data

Results flagged for a closer look

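Of 73 groups of 4 to 6 tumours examined for a sample far from the others, 4 held one, and chance gives about 1 in 20. None was a value of the 7 measured members. Ifit2 was at 0.043 in Mdr2-KO tumour 7, above -1.49 to -1.25 in the other 3 Mdr2-KO tumours, and the same tumour had the highest mean of the 7 genes. Psmb6 was at -0.379 in Mdr2-KO tumour 7, below -0.14 to -0.09 in the other 3. Irf1 was at 0.489 in Mdr2-KO tumour 1, above 0.23 to 0.25 in the other 3. Cxcl9 was at 2.55 in IkB-SR tumour 8, above 1.54 to 1.84 in the other 5 IkB-SR tumours, and this was the tumour with Nfkbia at 0.00.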

How the results depend on the processing

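The 7 genes stayed uncalled for IkB-SR against Mdr2-KO tumours under every alternative run, and the Irf9 difference ranged from -0.82 (Eif2s3y as a covariate) to -0.41 (without Mdr2-KO tumour 7) with the same sign in 28 of 28. Over the wild-type liver, only the fit of all 22 arrays with a dye term (correlation within samples 0.0745) called members, Psmb9 in both tumour groups and Tap1 in Mdr2-KO tumours. That fit took the arrays of 1 sample, the single liver included, as nearly independent values, so its calls rest partly on technical replicates. Irf9 in Mdr2-KO tumours over the liver was -0.11 on Cy3 arrays alone, and in IkB-SR tumours 0.08 on Cy5 arrays alone. Irf7 in IkB-SR tumours over the liver was -0.03 within samples of large dye difference. No called value reversed.

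Counts of called features for IkB-SR against Mdr2-KO, IkB-SR against wild type and Mdr2-KO against wild type were 0, 29 and 43. They were 11, 25 and 28 with quantile normalization, 9, 30 and 32 with median centring, 2, 13 and 12 on Cy3 arrays, 1, 24 and 24 on Cy5 arrays, 3, 42 and 65 with the dye set as a block, 48, 44 and 109 with array weights, 530, 378 and 580 on all 22 arrays, and 0, 34 and 5 with Eif2s3y as a covariate. The counts on all 22 arrays come from the fit that took arrays of 1 sample as nearly independent. For the tumour comparison alone the counts were 15 with a value from 1 array and 4 with values in all samples. They were 1 with each probe as a feature, 14 within samples of small and 6 within samples of large dye difference. Leaving out 1 tumour gave 0 to 33, 18 to 34 and 16 to 47. In the first, 12 were called without IkB-SR 4, 13 without IkB-SR 8 and 33 without Mdr2-KO 2. In the second, 18 were called without IkB-SR 10 and 19 without Mdr2-KO 1. In the third, 20 were called without IkB-SR 10, and 17, 23 and 16 without Mdr2-KO 1, 2 and 5. The higher and lower calls over wild type were 19 and 10 for IkB-SR and 32 and 11 for Mdr2-KO, 13 and 12, and 13 and 15 with quantile normalization, and 15 and 15, and 20 and 12 with median centring.

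Correlated pairs past the threshold numbered 9 of 21, and 14 with quantile normalization, 4 with median centring, 2 on Cy3 arrays, 4 with a value from 1 array, 0 in the 6 tumours of small dye difference, 4 on deviations from dye-set means (an alternative chosen after seeing the data, as was averaging probes without centring) and 4 to 9 without 1 tumour (4 without any of IkB-SR 4, 6, 8, 9 and 10 or Mdr2-KO 5). All 21 stayed positive in each of these. Members with an exact permutation p under 0.05 numbered 0, and 0 to 1 without 1 tumour. The cause of these shifts was not tested. No paired analysis between groups was possible, because the labels pair no tumour with a sample of another group. The replicate numbers only count the tumours and the liver.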
